A study of Mus musculus with 10 samples.

Results

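Hddc3 and Fah are a pair of genes on mouse chromosome 7 that were chosen by their low levels in Mpc2-deficient granulocyte-monocyte progenitors (GMPs), and they are described here with 7 expressed neighbours, Rccd1, Unc45a, Man2a2, Fes, Furin, Blm and Iqgap1. The files covered 51717 annotated genes, and all 9 members were among the 12381 genes with enough reads to test. The neighbours were taken by position and expression, between 79 and 85 Mb of chromosome 7 (GRCm38). The aim was to ask whether 2 single genes or a whole stretch of the chromosome stood lower. All 7 start within 483 kb of Hddc3 and none starts near Fah. Tested genes closer to Hddc3 than Iqgap1, such as Prc1, are not among them. RNA was sequenced from CD45.2+ GMPs of 5 WT samples (ROSA26 CreER+/-) and 5 recent KO samples (Mpc2fl/fl; ROSA26 CreER+/-), both from C57Bl6/N males by their labels and both on tamoxifen chow for 2 wk. The cells came from mixed bone marrow chimeras, in which CD45.2+ donor marrow and CD45.1+ marrow were placed together in irradiated CD45.1+ hosts. ROSA26 CreER is expressed in all cell types, so the WT cells also carried CreER and met tamoxifen. By the stated genotypes the groups differed by the floxed Mpc2 alleles and their deletion. The paper used littermates when possible, and other differences between the donor mice were not tested. Each WT sample held the cells of 1 mouse, whereas the recent KO cells were pooled from 2 mice per sample. The age of the animals was not given in the sources used here.

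HDDC3 (also called MESH1) is the animal relative of bacterial enzymes that break down the starvation messenger ppGpp, and in mammalian cells it removes a phosphate from NADPH, the electron donor for biosynthesis and for repair of oxidized lipids. FAH, fumarylacetoacetate hydrolase, carries out the last step of tyrosine breakdown, which ends in fumarate and acetoacetate, and its loss in the liver causes hereditary tyrosinemia. The 7 neighbours have unrelated roles. Fes is a cytoplasmic tyrosine kinase known from myeloid cells, Furin cuts proproteins in the secretory pathway, Man2a2 trims N-glycans in the Golgi, Blm is the DNA helicase mutated in Bloom syndrome, Unc45a is a chaperone for myosin, Rccd1 is a partner of the histone demethylase KDM8, and Iqgap1 is a scaffold that binds Rac1 and Cdc42.

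By the annotation at hand (GENCODE M21 on GRCm38), Hddc3 lies on the forward strand at chr7:80343104-80350547 and Fah on the reverse strand at chr7:84585159-84606722, and their start sites are 4.26 Mb apart. Unc45a and Hddc3 stand head to head with 2098 bases between them, so the region upstream of Hddc3 is shared with a gene on the other strand. The stretches just upstream of the RefSeq start sites are printed to show what the 2 genes do and do not have in common at their promoters. The RefSeq table of promoters (GRCm38.p6) held 8 of the 9 genes. A window of 250 bases upstream was searched on both strands for the TATA box (TATAAA), the CCAAT box, the GC box (GGGCGG), the E-box (CACGTG) and an ETS site (CCGGAAGT). The Hddc3 sequence is the 217 bases of its window that precede the first exon by GENCODE (chr7:80342887-80343103, forward strand), and the Fah sequence is the whole window (chr7:84605943-84606192, reverse strand). Capitals mark the motifs found.
Hddc3 promoter: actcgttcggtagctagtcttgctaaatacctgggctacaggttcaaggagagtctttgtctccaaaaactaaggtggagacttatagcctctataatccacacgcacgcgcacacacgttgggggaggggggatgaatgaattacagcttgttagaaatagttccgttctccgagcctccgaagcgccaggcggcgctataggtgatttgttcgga
Fah promoter: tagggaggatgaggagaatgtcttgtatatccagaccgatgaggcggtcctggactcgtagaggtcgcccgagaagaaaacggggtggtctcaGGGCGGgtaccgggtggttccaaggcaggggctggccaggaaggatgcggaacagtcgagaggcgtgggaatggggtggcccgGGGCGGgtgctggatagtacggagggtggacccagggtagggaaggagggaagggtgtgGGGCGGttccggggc

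The Fah window held 3 GC boxes, all on the strand of the gene, and the Hddc3 window held none of the 5 motifs. A GC box was found in 32.7% of 32851 promoter windows, a CCAAT box in 33.8%, a TATA box in 12.4%, an E-box in 6.02% and the ETS site in 2.88%, and a match is a description only. The base composition was 52.8% G and C for Hddc3 and 64.4% for Fah, beside a median of 52.4% over all windows.

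Hddc3 stood at a lower level in every recent KO sample than in any WT sample. In CPM (counts scaled to library size after TMM normalization) the WT samples held 27.02, 28.7, 25.7, 30.2 and 29.6 and the recent KO samples 4.64, 3.99, 5.28, 4.38 and 6.13. The groups did not overlap, and the lowest WT sample was far above the highest recent KO sample. The mean fell from 28.3 ± 1.86 CPM to 4.88 ± 0.841 CPM (SD, n = 5 each), so that 17.3% of the WT level was left. The log2 fold change of the edgeR fit was -2.52 with an SE of 0.11, an approximate value derived from the F statistic of the fit. Because Hddc3 was selected on this difference, it is given with no test. These levels rested on 389 to 552 estimated reads in a WT sample and 57 to 119 in a recent KO sample.

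Fah was also lower in every recent KO sample than in any WT sample. WT samples held 9.84, 13.0, 15.4, 15.7 and 9.34 CPM, and recent KO samples 3.94, 2.52, 2.15, 2.68 and 2.99 CPM. The groups again did not overlap, although the WT samples were more spread than for Hddc3. The means were 12.6 ± 2.99 and 2.85 ± 0.677 CPM (SD, n = 5 each), which left 22.6% of the WT level, and the log2 fold change was -2.15 with an SE of 0.20, also with no test since Fah was chosen for it. Fah was read from 156 to 259 estimated reads in WT and 36 to 58 in recent KO samples. In bulk RNA, fewer cells with a transcript and less of it in each cell cannot be told apart.

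**Figure D1:**
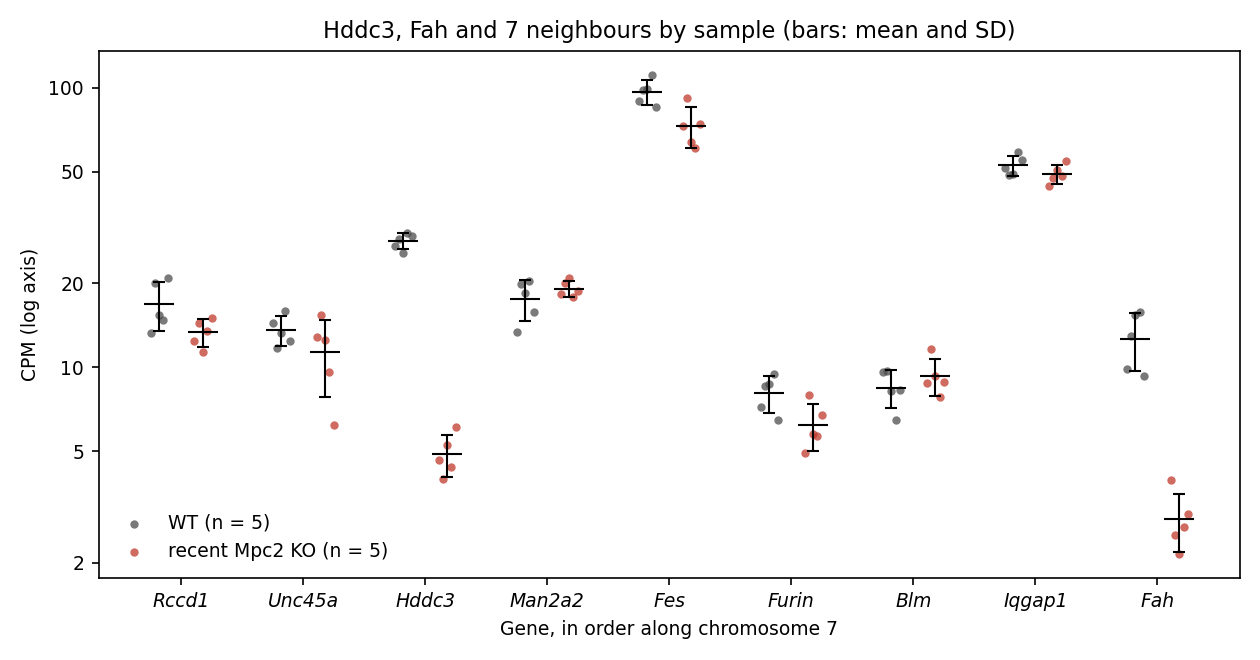
CPM of Hddc3, Fah and the 7 neighbours in each of 5 WT (grey) and 5 recent Mpc2 KO samples (red), on a log axis, with bars for the mean and SD. Hddc3 and Fah have no overlap between groups, and the groups of each of the 7 neighbours overlap.

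The neighbour closest to Hddc3 upstream, Unc45a, did not pass the test. Its WT samples held 14.4, 11.7, 13.3, 15.9 and 12.4 CPM and its recent KO samples 12.9, 15.3, 12.6, 9.62 and 6.24 CPM. Recent KO replicates 1, 2 and 3 lay within the WT range, and replicates 4 and 5 below it. The log2 fold change was -0.26 with an SE of 0.19 and an edgeR adjusted p of 0.703. Man2a2, the next protein-coding gene downstream, has its end within the span of Hddc3 on the opposite strand. It held 13.4, 19.8, 18.5, 20.4 and 15.7 CPM in WT and 18.2, 20.1, 20.8, 17.8 and 18.7 CPM in recent KO samples, and all recent KO samples were within or just above the WT range. Its log2 fold change was 0.13 (SE 0.11, edgeR adjusted p = 0.779).

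Fes had the largest difference among the 7 neighbours. WT samples ranged from 85.4 to 111 CPM with a median of 98.3 and recent KO samples from 60.8 to 92.0 with a median of 73.0. Recent KO replicate 2 was inside the WT range, and the other 4 recent KO samples were below it. The log2 fold change was -0.41 (SE 0.11), with an unadjusted p of 0.0018 and an edgeR adjusted p of 0.176, so Fes did not pass. Without recent KO replicate 2 it passed, at a log2 fold change of -0.51 and an edgeR adjusted p of 0.0191, and it also passed with DESeq2 (adjusted p = 0.0317) and in edgeR with no filter on low counts (adjusted p = 0.0120).

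Furin, which starts on the far side of Fes, held 7.20, 8.54, 8.73, 9.48 and 6.47 CPM in WT and 4.92, 7.97, 5.77, 5.66 and 6.75 CPM in recent KO samples. The groups overlapped through WT replicates 1 and 5 and recent KO replicates 2 and 5. Its log2 fold change was -0.38 (SE 0.15, unadjusted p = 0.0275, edgeR adjusted p = 0.416). Rccd1, upstream of Unc45a, held 13.2, 20.02, 15.4, 14.7 and 20.8 CPM in WT and 12.4, 14.3, 11.3, 13.5 and 15.1 CPM in recent KO samples, at -0.34 (SE 0.13, unadjusted p = 0.0257, edgeR adjusted p = 0.414). WT replicates 2 and 5 carried much of that difference, since the other 3 WT samples lay among or next to the recent KO samples.

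The other 2 neighbours, Blm and Iqgap1, also did not pass. Blm held 6.45 to 9.71 CPM in WT and 7.85 to 11.6 CPM in recent KO samples, with a log2 fold change of 0.13 (SE 0.14, edgeR adjusted p = 0.827). Iqgap1 held 48.8 to 58.9 CPM in WT and 44.5 to 54.5 CPM in recent KO samples, with a log2 fold change of -0.10 (SE 0.08, edgeR adjusted p = 0.720). None of the 7 neighbours was called at an adjusted p of 0.05 by edgeR, and 3 of them (Fes, Furin and Rccd1) had an unadjusted p under 0.05, all lower. Across all tested genes, 0.21% were called lower and 0.121% higher, and 5.35% were lower and 4.89% higher at an unadjusted p under 0.05. The median log2 fold change was -0.26 over the 7 neighbours and -0.0018 over all tested genes. Groups without overlap were found for 1.32% of tested genes in the lower direction and 1.11% in the higher direction, and for none of the 7 neighbours.

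On the scale of TPM, which divides reads by transcript length and so allows levels to be compared between genes, Fes (35.3 ± 2.32) and Hddc3 (27.8 ± 4.34) were the highest of the 9 in WT, and the lowest Fes sample (32.7) lay just under the highest Hddc3 sample (33.4), so their order was not beyond their spread. Rccd1 (7.52 ± 1.49), Fah (7.38 ± 1.30) and Iqgap1 (6.99 ± 0.747) followed and did not differ beyond their spread. Unc45a (5.01 ± 1.27), Man2a2 (3.09 ± 0.529), Blm (2.58 ± 0.431) and Furin (1.56 ± 0.202) came last. In recent KO samples Fes was still first (26.6 ± 5.63 TPM) and Hddc3 second, at 8.38 ± 1.71 TPM, close to Iqgap1 (6.66 ± 0.901) and Rccd1 (6.24 ± 1.07). Fah moved next to the bottom, at 1.74 ± 0.318 TPM, beside Furin (1.61 ± 0.996), whose mean there was raised by recent KO replicate 2 (3.37 TPM against 0.901 to 1.42 in the other 4). In TPM 30.1% of the WT level of Hddc3 was left, against 17.3% in CPM, and for Fah the shares were 23.6% and 22.6%. Blm was higher in every recent KO sample (3.37 to 4.12 TPM) than in any WT sample (2.08 to 2.97 TPM), although it overlapped in CPM and did not pass a test on either scale.

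By the estimates of Salmon, which divides reads among transcripts with shared exons, the transcripts of Hddc3 were not lowered alike. They differ in length, so the mix bears on the TPM of the gene. All 10 annotated transcripts of Hddc3 received reads. The main one, Hddc3-201, has 4 exons and 1510 bases, of which the last exon (chr7:80345648-80346714) takes 1067, with 128 coding and 939 untranslated bases. Other transcripts leave exon 3 for a different end. The 4 versions below are the main transcript and others that kept more of their level, among them Hddc3-209 at 50.6% of WT. Each is read across the end of exon 3 at base 80343956 of chromosome 7, in the coding sequence. Lower case marks the last 12 bases of exon 3 and capitals the 12 bases that follow in that transcript, from GENCODE M21 (GRCm38, forward strand).
Hddc3-201: gcacccctacagGATGGTCAGAAC
Hddc3-202: gcacccctacagTCAGGGTTTCTA
Hddc3-207: gcacccctacagGTCTGTCTGACC
Hddc3-209: gcacccctacagGTATGCTCTCCT

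Hddc3-201 continues into its last exon at 80345648, Hddc3-202 into an exon at 80344102, Hddc3-207 into an exon at 80350121 that lies under Man2a2, and Hddc3-209 reads on without a splice. Hddc3-201 held 24.4, 22.9, 20.6, 25.7 and 24.6 CPM in WT and 2.19, 1.70, 2.14, 1.84 and 3.46 CPM in recent KO samples. Its means were 23.6 ± 1.95 and 2.27 ± 0.699 CPM (SD, n = 5 each), so that 9.59% was left, with no overlap between groups and a log2 fold change of -3.37 (SE 0.19). The other 9 transcripts together held 3.14 to 5.62 CPM in WT and 2.34 to 3.19 CPM in recent KO samples, and 57.1% was left, with overlap between groups. The share of Hddc3 reads in Hddc3-201 was 83.5% ± 3.61 in WT and 45.1% ± 6.65 in recent KO samples (SD, n = 5 each). The 7 transcripts that lack the last exon of Hddc3-201 went from 3.52 ± 0.805 CPM to 2.24 ± 0.368 CPM, with overlap between groups.

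Among those with enough reads to fit, Hddc3-202 held 0.480 to 0.952 CPM in WT and 0.568 to 0.796 CPM in recent KO samples, with a log2 fold change of 0.13 (SE 0.34). Hddc3-209 had a log2 fold change of -0.97 (SE 0.38), and Hddc3-204, annotated as subject to nonsense-mediated decay, -1.13 (SE 0.48), and the groups of both overlapped. These transcripts were read from at most 44 estimated reads in a sample for Hddc3-209 and fewer for Hddc3-202, so their shares are coarse. Hddc3 is partly covered by an antisense gene model, Gm18310, a single exon of unproven status at chr7:80344082-80347993. It spans the whole last exon of Hddc3-201 and overlaps exons of 8 Hddc3 transcripts in all, Hddc3-202 and Hddc3-204 among them. The library kit marks no strand, so reads from both cannot be told apart where they overlap, and Salmon divides them. Gm18310 held 1.81, 0.0555, 1.37, 0.466 and 1.14 CPM in WT and 1.20, 3.15, 0.293, 0.974 and 1.80 CPM in recent KO samples, which overlapped, with a log2 fold change of 0.57 (SE 0.63, edgeR adjusted p = 0.834). With Gm18310 added to Hddc3, a sum chosen after the values were seen, the log2 fold change was -2.20.

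**Figure D2:**
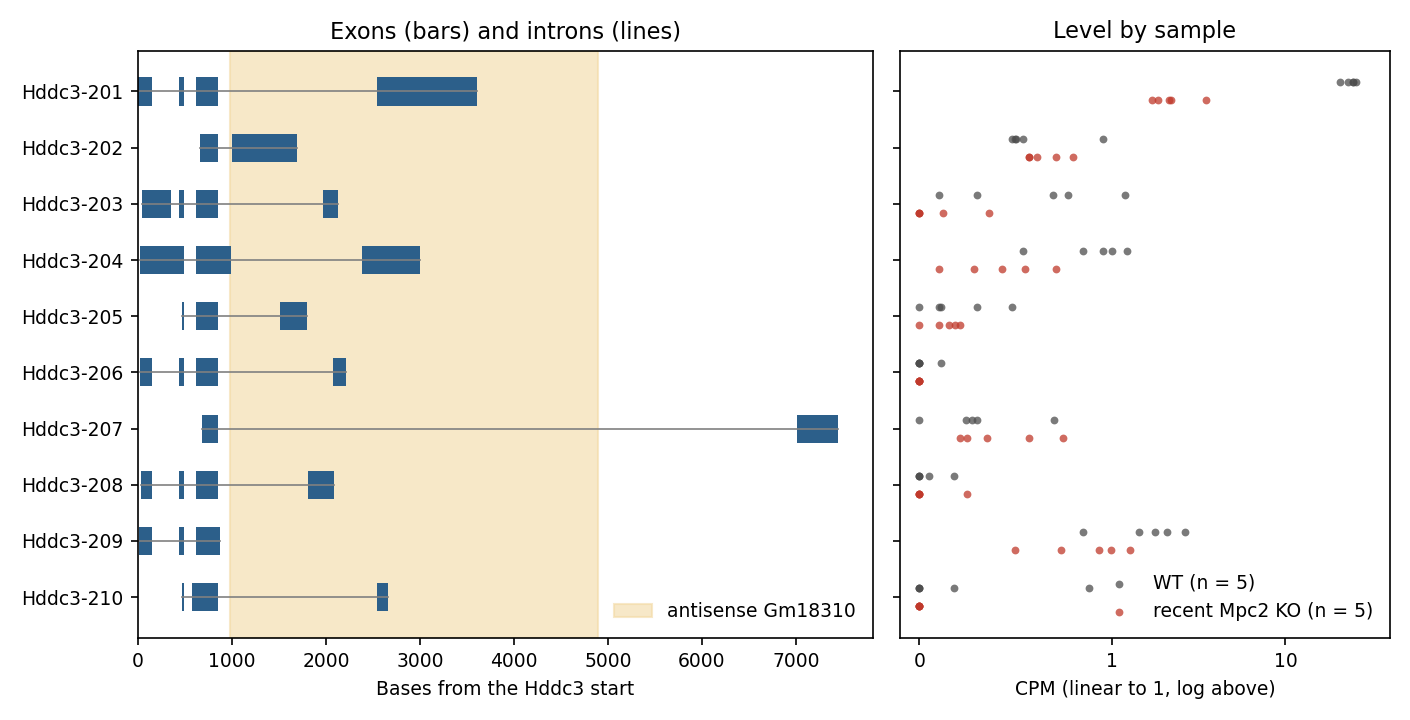
Left, exons of the 10 Hddc3 transcripts in bases from the Hddc3 start, with the span of the antisense Gm18310 shaded. Right, CPM of each transcript in 5 WT (grey) and 5 recent Mpc2 KO samples (red), on an axis that is linear up to 1 and logarithmic above. Hddc3-201 lies at 20.6 to 25.7 CPM in WT and 1.70 to 3.46 CPM in recent KO samples, and the groups overlap for the 9 other transcripts.

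For Fah 1 of 5 annotated transcripts, Fah-201, received reads. It has 14 exons and 1585 bases (chr7:84585159-84605942) and its log2 fold change was -2.13 (SE 0.22), close to that of the whole gene. The 7 neighbours had 67 annotated transcripts, of which 24 had enough reads to test and none was called by edgeR (adjusted over 26185 transcripts, 0.042% of which were called). The lowest was Furin-203, a protein-coding transcript with 16 exons. It held 3.79, 3.09, 2.26, 3.47 and 3.48 CPM in WT and was listed at 0 in recent KO replicates 1, 2, 4 and 5 and at 2.29 CPM in replicate 3. Its edgeR adjusted p was 0.822, and without recent KO replicate 3 it was 0.0142. In those 4 samples the reads of the gene stood instead under other protein-coding transcripts with 16 exons. Furin-201 had 0 reads in every WT sample and 52, 59 and 51 in recent KO replicates 2, 4 and 5, and Furin-202 had 0 to 21 reads in a WT sample and 43 in recent KO replicate 1. The division of reads among these transcripts is an estimate of Salmon, so the values of Furin-203 alone do not show a lower output of coding transcripts. For Fes, the main transcript Fes-201 held 75.9 to 92.6 CPM in WT and 53.9 to 81.2 CPM in recent KO samples, with a log2 fold change of -0.36 (SE 0.11, edgeR adjusted p = 0.644).

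The window from 79 to 85 Mb held 188 annotated genes, of which 123 had reads and 54 were tested. Of the 52 other than Hddc3 and Fah, 1 was called lower and 0 higher by edgeR, beside 0.21% and 0.121% of all tested genes. The called gene was Polg, the catalytic subunit of the mitochondrial DNA polymerase, 877 kb before Hddc3. Polg held 16.8, 20.96, 21.1, 21.1 and 16.3 CPM in WT and 13.7, 11.3, 13.2, 14.2 and 13.6 CPM in recent KO samples, with no overlap. Its log2 fold change was -0.54 (SE 0.10, edgeR adjusted p = 0.0466), close to the threshold. Over the alternatives tried the adjusted p of Polg ran from 0.00139 to 0.408, and it passed without 1 WT sample (replicate 1 or 5) or recent KO replicate 2 but not without any 1 of the other 7 samples, where the adjusted p was 0.0677 to 0.146.

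At an unadjusted p under 0.05, 7 of the 52 genes were lower (Polg, Ngrn, Prc1, Rccd1, Fes, Furin and Mesd) and 3 were higher (Homer2, Ramac and Tlnrd1), which is 13.5% and 5.77%. Over all tested genes the shares were 5.35% and 4.89%. The median log2 fold change over the 52 was -0.03, and 28 of them were below 0. The groups did not overlap for 2 of the 52 (Polg and Prc1) in the lower direction and for 1 (Ramac) in the higher direction. Of all tested genes, 1.32% and 1.11% had no overlap in these directions. The 28 genes between Hddc3 and Fah had a median of 0.05, with 3 lower and 3 higher at an unadjusted p under 0.05 and none called. The lowest of the 28 was Fes, at -0.41, against -2.52 for Hddc3 and -2.15 for Fah.

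**Figure D3:**
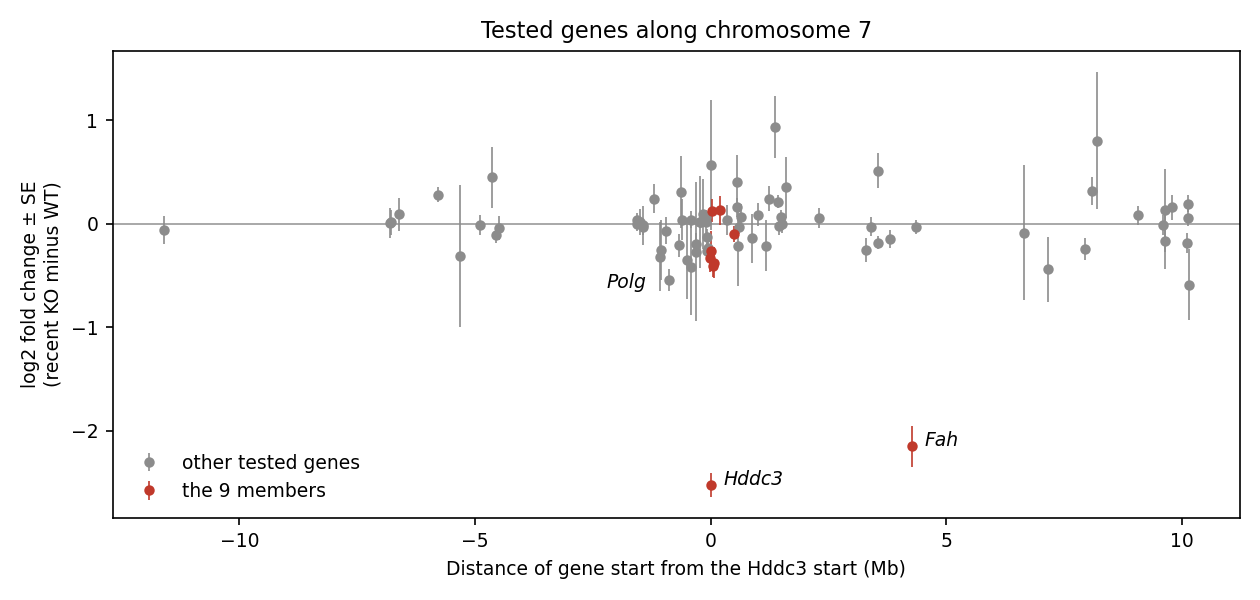
Log2 fold change (recent KO minus WT) with its approximate SE for tested genes of chromosome 7, against the distance of the gene start from the Hddc3 start in Mb. The 9 genes described here are in red. Hddc3 (-2.52) and Fah (-2.15) stand apart from the genes around and between them, which lie between -0.54 and 0.93 inside the window.

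Of 33 tested genes that start within 1 Mb of Hddc3, 6 were lower and 0 higher at an unadjusted p under 0.05, beside 5.35% and 4.89% over all tested genes, and the median was -0.07. Values below 0 made up 54.5% of these genes, 53.8% of the window and 50.4% of all tested genes. The difference between these shares was not tested. Within 150 kb, a distance chosen after the values were seen, 5 of 11 genes (Ngrn, Prc1, Rccd1, Fes and Furin) were lower and 0 higher, with a median of -0.24, and none of the 11 was called. Prc1, which bundles microtubules of the dividing cell, shares 911 exon bases with Rccd1 on the opposite strand, so those 2 values are not independent. Prc1 stood at -0.24 (SE 0.08, edgeR adjusted p = 0.302). Ngrn, needed for the mitochondrial ribosome, stood at -0.26 (SE 0.08, edgeR adjusted p = 0.228). All of these differences were smaller than that of Hddc3.

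Around Fah the tested genes were sparse. Mesd, a chaperone of lipoprotein receptors that starts 722 kb before it, held 108 to 129 CPM in WT and 97.6 to 112 CPM in recent KO samples (log2 fold change -0.18, SE 0.06, edgeR adjusted p = 0.334). Abhd17c, a depalmitoylating enzyme 455 kb before it, held 55.2 to 62.0 CPM in WT and 48.2 to 65.4 CPM in recent KO samples (log2 fold change -0.15, SE 0.09, edgeR adjusted p = 0.607). Zfand6, the nearest tested gene, starts 83.2 kb beyond Fah and held 58.1 to 68.0 CPM in WT and 56.1 to 67.2 CPM in recent KO samples (log2 fold change -0.03, SE 0.07, edgeR adjusted p = 0.916). The next one, the vomeronasal receptor gene Vmn2r79, lies 2389 kb away and held at most 1.89 CPM, with a log2 fold change of -0.09 (edgeR adjusted p = 0.978). Of 6 tested genes that start within 1 Mb of Fah, 0 were called, 1 was lower and 1 higher at an unadjusted p under 0.05.

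Sample by sample, the window did not follow Hddc3. The median over its other tested genes of the difference from the WT mean in log2 CPM was between -0.02 and 0.04 in WT samples and between -0.06 and 0.04 in recent KO samples. The same difference was -2.68 to -2.11 for Hddc3 and -2.28 to -1.54 for Fah in recent KO samples. Recent KO replicate 2 had the lowest value of Hddc3 and a median over the 7 neighbours of -0.01, the closest to WT, while recent KO replicate 4 had the lowest median over the neighbours, -0.28. The neighbour median was -0.24, -0.10 and -0.13 in recent KO replicates 1, 3 and 5, so it was below 0 in every recent KO sample. In WT samples it was -0.12 to 0.21.

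**Figure D4:**
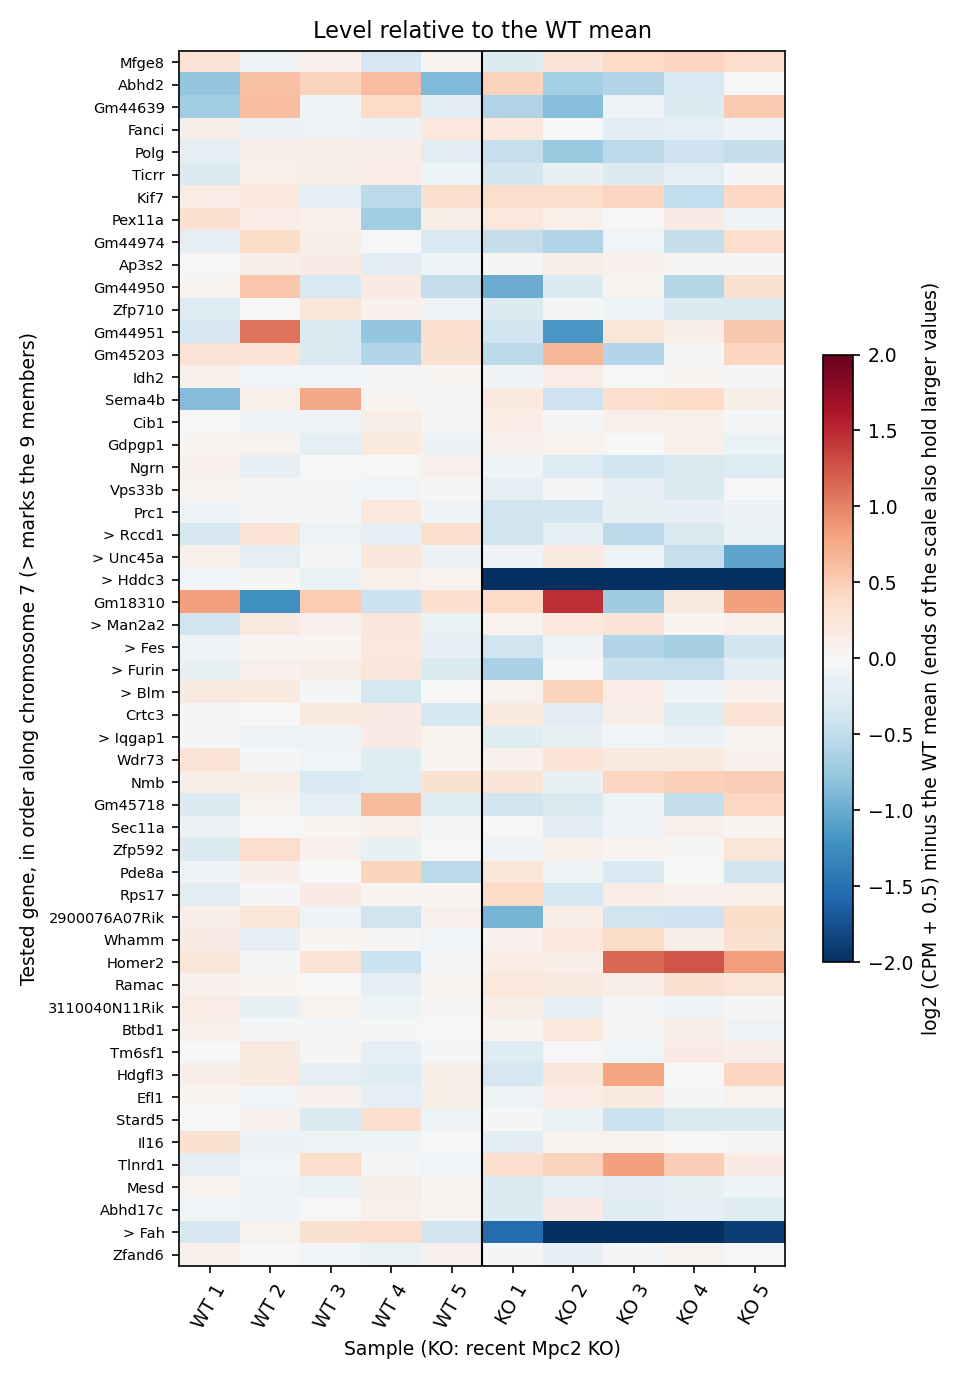
Tested genes of the window in their order along chromosome 7 (rows) in 5 WT and 5 recent Mpc2 KO samples (columns), coloured by log2 (CPM + 0.5) minus the WT mean, on a scale from -2 to 2. Hddc3 and Fah form 2 separate dark rows in all 5 recent KO samples, and the rows between them stay pale with few exceptions.

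Genes elsewhere in the genome were ranked by how closely their pattern over the 10 samples followed that of Hddc3 or Fah, as the root mean square difference of z-scored log2 (CPM + 0.5). Both the pattern and the ranking use the difference between groups, so the list is a description. Among all tested genes Fah ranked 6 for Hddc3 (0.286) and Hddc3 ranked 3 for Fah. The 5 genes outside the window most like Hddc3 were Gm42429 (0.124), Gm35279 (0.213), Rps7 (0.241), Wdfy1 (0.258) and Lrmda (0.259), on chromosomes 5, 13, 12, 1 and 14. Gm42429 held 9.31 CPM in WT and no read in any recent KO sample, where 3 reads stand for 0.147 to 0.233 CPM. Rps7, a protein of the small ribosomal subunit whose retrocopies can share its reads, had means of 867 and 375 CPM in the WT and recent KO groups, and Wdfy1, an adaptor in Toll-like receptor signaling, of 66.9 and 42.8 CPM. For Fah the nearest were Gm42429 (0.241), Gm35279 (0.284), Ap2s1 (0.294), Ddx41 (0.296) and Fam177a (0.314). The z-scores leave out the size of a difference. Ap2s1, Ddx41 and Fam177a kept 86.3%, 88.1% and 67.3% of their WT level and Gm35279 kept 6.91%, against 22.6% for Fah. The closest of the 7 neighbours was Fes, at rank 221 for Hddc3 and rank 112 for Fah, and Man2a2 and Blm were the last of the 7, at ranks 9990 and 10056 of 12381 for Hddc3.

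The other genes of the pathways in which the 2 enzymes act were not called in either direction by edgeR. Over all tested genes 0.21% were called lower and 0.121% higher, so a count of 0 in lists this short says little. Of 8 tested genes of tyrosine breakdown and its relatives other than Fah, 0 were called, with log2 fold changes from -0.08 to 0.18 and a median of 0.05. Gstz1, which makes the substrate of FAH, held 37.02 ± 4.33 CPM in the WT group and 37.8 ± 5.71 CPM in the recent KO group (SD, n = 5 each). Tat and Hpd, which act earlier in the pathway, had no reads in any sample, and Hgd had none in WT and a mean of 0.0506 CPM in recent KO samples, below that floor of 3 reads. Of 13 tested genes that supply or use NADPH other than Hddc3, 0 were called, with log2 fold changes from -0.28 for Pgd to 0.22 for Mthfd2l and a median of 0.02. Nadk, which makes NADP, held 87.7 ± 3.80 and 81.3 ± 5.63 CPM, and G6pdx, the entry to the pentose phosphate pathway, 160 ± 9.79 and 153 ± 21.4 CPM (SD, n = 5 each). Nnt is annotated as 2 overlapping gene models between which the reads are split, so it was left out of the test, and both models summed to 27.5 ± 2.57 CPM in the WT group and to 25.6 ± 2.39 CPM in the recent KO group (SD, n = 5 each).

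Hddc2 and Samhd1, enzymes with the same HD domain as HDDC3, did not pass either (log2 fold changes 0.33 and 0.0009, edgeR adjusted p = 0.238 and 0.999). Of 15 tested partners and relatives of the 7 neighbours 0 were called, beside 0.21% lower and 0.121% higher over all tested genes. The 15 had a median of -0.10, with 13 below 0. Among them Fer, the other kinase of the Fes family, stood at 0.39 (edgeR adjusted p = 0.602), Pcsk7, a convertase related to Furin, at -0.16 (edgeR adjusted p = 0.729), and Top3a, which works with Blm, at -0.02 (edgeR adjusted p = 0.975).

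Mpc2 itself was lower in every recent KO sample (17.1 to 43.9 CPM) than in any WT sample (60.9 to 117 CPM), with a log2 fold change of -1.46 (SE 0.24, edgeR adjusted p = 0.0156), as the labels say. The call was lost without recent KO replicate 1 (adjusted p = 0.05002), with a transcript length offset (0.0730), with a replicate block (0.0577) and with limma on TPM (0.130 and 0.138), with the same direction in each. Total estimated reads were 14033776 to 19745405 a sample. The GMP markers summed to 87732 to 123563 CPM in WT and 51831 to 89785 CPM in recent KO samples, and 0 of 8 were called. At an unadjusted edgeR p under 0.05, Mpo, Elane, Prtn3, Ctsg and Fcgr3 were lower, beside 5.35% of all tested genes. The groups of Fcgr3 did not overlap (log2 fold change -0.65), as for 1.32% of all tested genes in that direction. Kit stood at 0.08, Cd34 at 0.25 and Csf3r at -0.16, with overlap between groups. Of 5 macrophage markers, 3 (C1qa, C1qb and C1qc) were called higher by edgeR, beside 0.121% of all tested genes. Adgre1 (log2 fold change -0.39) and Vcam1 (0.18) of the same list were not called, and their groups overlapped. The list summed to 14.9 to 28.6 CPM in WT and 30.8 to 53.3 CPM in recent KO samples, and no marker of it was at 0 throughout. The erythroid list summed to 6.07 to 24.2 CPM in WT and 13.0 to 14.6 CPM in recent KO replicates 1 and 2, but 80.1 to 124 CPM in replicates 3 to 5. Of its 5 markers 4 were tested and 0 were called. Late neutrophil markers ranged from 14.9 to 60.01 CPM in WT and from 13.2 to 233 CPM in recent KO samples. The megakaryocyte sum was 6.84 to 14.2 CPM in WT and 17.1 to 25.7 CPM in recent KO samples, with no overlap. The macrophage sums did not overlap between groups either. The lists for late neutrophils, megakaryocytes, basophils and mast cells, B cells, and T and NK cells had 0 markers called, of 4, 2, 3, 2 and 1 tested. Ltf, Camp and Ngp of late neutrophils and Hba-a1, Hbb-bs and Car1 of the erythroid list were higher at an unadjusted edgeR p under 0.05. So were Pf4 and Itga2b of megakaryocytes and Mcpt8 of basophils, beside 4.89% of all tested genes, while Prss34 was lower, beside 5.35%. The part of these cell types in the levels of Hddc3 and Fah was not tested.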

How the data were processed

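The members, the gene lists and the alternatives were chosen with earlier results of these data known. The authors sorted CD45.2+ GMPs, made cDNA libraries with SMARTseq V4, which marks no strand, and quantified paired-end reads against Gencode M27 (GRCm39) with Salmon, version 1.5.1 by the submitters' processing notes, which also name DESeq2 2.11.40.6. For each sample the authors deposited, per transcript, estimated counts of reads that are not normalized, TPM, and other columns with transcript lengths, which served for the length offset. A deposited table of the authors' own DESeq2 comparison holds base means, fold changes and p-values and was not used. The number of value columns not matched to a sample was 0.

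Transcripts were matched by Ensembl identifier to GENCODE M21 on GRCm38, the reference at hand, and 137161 of 140789 matched (97.4%); the rest held 0.348% to 0.390% of reads and were left out. Estimated counts were summed per gene and rounded. Genes were tested with edgeR 4.0.16 (quasi-likelihood, TMM, filterByExpr at a minimum count of 10, group as the only term, R 4.3.3) with Benjamini-Hochberg adjustment over all 12381 genes at 0.05, and transcripts in the same way over 26185. Each SE printed for genes and transcripts is the absolute log2 fold change divided by the square root of the quasi-likelihood F statistic. It is an approximation, since the edgeR test gives no SE. Levels are TMM-normalized CPM, and a pseudocount of 0.5 was added before a log2 for z-scores and deviations. A floor of 3 counts (0.147 to 0.233 CPM) covers counting error only, since reads without molecular identifiers are not independent molecules. No 2 samples were identical, and replicates differed by more than sampling noise (chi-square per gene 6.31 to 41.7). The fit was tested on simulated counts.

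Named genes were the 9 members, the 2 nearest tested genes on each side of Hddc3 and of Fah, window genes called at 0.05, the 5 genes elsewhere most like Hddc3 and most like Fah, called genes of the lists, and Mpc2. Ngrn, Prc1, Mesd, Homer2, Ramac, Tlnrd1, Hapln3 and list genes with no call were named after their values were seen. Many other list genes with no call are not named in the text. As alternatives, the fit was repeated with RLE, upper quartile or library size scaling, with no filter or a mean count of at least 50, with DESeq2 1.42.0, with a length offset, with limma 3.58.1 on log2(TPM + 1) and log2(TPM + 0.1) where the mean TPM was 1 or more, with a replicate block, with protein-coding transcripts only, with other windows, with sums over overlapping genes, and with each sample left out. Groups and replicate numbers came from the sample titles. Python 3.11.15, numpy 2.4.6 and pandas 2.3.3 were used for the remaining steps.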

Additional observations from a re-analysis of the deposited data

Results flagged for a closer look

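In the 50 groups of 5 samples examined (the named genes and the main Hddc3 transcript), 2 held a sample far from the other 4, and chance alone would give about 2.5. Abhd17c, upstream of Fah, stood at 65.4 CPM in recent KO replicate 2 where the other 4 samples of its group held 48.2 to 51.3 CPM. The main Hddc3 transcript, Hddc3-201, stood at 3.46 CPM in recent KO replicate 5 and at 1.70 to 2.19 CPM in the other 4, all below the lowest WT sample of 20.6 CPM.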

How the results depend on the processing

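Hddc3 and Fah were lower in recent KO samples under every alternative run. The log2 fold change of Hddc3 was -1.79 when fitted with an offset for length, -1.63 and -1.73 by limma at log2(TPM + 1) and at log2(TPM + 0.1), -2.20 summed with Gm18310 (added after seeing the data) and -0.87 summed with all genes of overlapping exons, Man2a2 included, and that of Fah was -1.60 with limma on log2(TPM + 1). With each sample left out in turn, Hddc3 ran from -2.62 to -2.46 and Fah from -2.29 to -2.06. The number of window genes called includes Hddc3 and Fah, 2 genes that the selection fixes. It was 5 with DESeq2 and with no filter on low counts, the others being Fes, the scarce Hapln3 and Polg, and 2 to 4 with 1 sample left out. The number of the 7 neighbours called was 1 (Fes) with DESeq2, with no filter and without recent KO replicate 2, and 0 to 1 over the samples left out. The number of neighbour transcripts called was 0 to 1 over the samples left out (Furin-203 without recent KO replicate 3). The window median turned to 0.043 with library size scaling only and to 0.028 and 0.031 with limma at pseudocounts 1 and 0.1, where the median of all genes was 0.069, 0.049 and 0.055, and it was -0.05 to 0.002 with 1 sample left out. Same-numbered samples of the 2 groups did not deviate together (correlations -0.177 to 0.0576). With the replicate block, no window gene other than Hddc3 and Fah was called and Polg did not pass (log2 fold change -0.54, adjusted p = 0.179); over all genes the number called was 20 with the block, 156 with DESeq2, 206 with no filter, 91 without recent KO replicate 2 and 41 in the reported fit. Transcript values near 3 reads, as for most minor Hddc3 transcripts, are limited by depth.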

Other observations

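Hapln3, a gene at the edge of the window, 1212 kb before Hddc3, had too few reads for the edgeR filter. It held 0.636, 1.44, 0.534, 0.311 and 0.599 CPM in WT and 0.211, 0, 0.195, 0 and 0 CPM in recent KO samples, with no overlap. Every WT sample stood above the range of the floor of 3 reads (0.147 to 0.233 CPM), and no recent KO sample did.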
